A study of Mus musculus with 4 samples.

Results

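ARGLU1, the target of the siRNA, and 9 other nuclear proteins, most of them rich in arginine together with serine or glutamate, were followed through an RNA-seq experiment in N2a cells, a mouse neuroblastoma line. The 10 genes were taken by name: Arglu1, the LUC7-like genes Luc7l, Luc7l2 and Luc7l3, the RNA binding motif genes Rbm25 and Rbm39, the large speckle genes Son, Srrm1 and Srrm2, and Pnisr. They are 10 of 22667 genes in the expression table. Of them, 9 were found by their current symbol, and Pnisr stood under its older symbol Sfrs18, with the same Ensembl identifier (ENSMUSG00000028248). The splicing tables hold 123 events of these genes among 91595 in all, counted as cassette exons, choices between 3′ splice sites (Alt3) and choices between 5′ splice sites (Alt5).

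Cells received a non-targeting siRNA pool (siControl) or Arglu1 siRNA (siArglu1) for 48 h. They then received ethanol vehicle (Veh) or the synthetic glucocorticoid dexamethasone (Dex) at 100 nM for 4 h. RNA of 3 cultures was pooled in each group, so the 4 groups (siControl and siArglu1, each with Veh and with Dex) are 1 mRNA library each, without replicates. The knockdown was transient and in 1 cell line. The methods of the study list a single Arglu1 siRNA, and its off-target effects were not tested here. The paper reports similar splicing results with independent siRNAs against Arglu1, and from this proposes that the changes were on target. Reads on genes came to between 66074574 and 86541444 per library. Of 14 neuroblastoma markers, 12 had a cRPKM of at least 1 in every library, and the neurofilament genes Nefl and Nefm were at or near 0. The summed cRPKM of 10 markers of glia, immune cells, endothelium and fibroblasts lay between 2.43 and 3.71.

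Pre-mRNA splicing is carried out by the spliceosome, whose assembly is helped by proteins with stretches of alternating arginine and serine, called RS domains. Many of these proteins gather in nuclear speckles, where splicing factors are stored and released. Several of their own genes carry exons that bring in a premature stop codon, so that transcripts including such an exon can be removed by nonsense-mediated decay (NMD).

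Protein composition was computed from coding sequences in GENCODE M21. Over 21498 mouse proteins, the median share of arginine was 5.36%, and the median number of neighbouring arginine and serine pairs, in either order, was 0.727 per 100 residues. ARGLU1 (271 residues) held 19.2% arginine, 19.9% glutamate and 10.3% serine, with 9.59 such pairs per 100 residues. Its composition is split along the chain. In the N-terminal part, cut at the midpoint, 24.4% of residues were arginine and 18.5% serine, and in the C-terminal part 25% were glutamate and 2.21% serine. SRRM2 (2703 residues), a spliceosome-associated scaffold of speckles, was the richest in pairs at 11.8 per 100. RBM25 and SON departed from the rest. SON (2477 residues) held 6.38% arginine, not far above the median of all proteins, though its 3.75 arginine and serine pairs per 100 residues were above 99.2% of them. In RBM25 (838 residues) the 0.835 such pairs per 100 residues were near the median of all proteins, whereas neighbouring arginine and glutamate pairs came to 11.1 per 100 against a median of 0.621. RBM25 is thus rich in arginine and glutamate and is not an RS protein by this count. The LUC7-like proteins are relatives of a yeast U1 snRNP component. Aligned end to end, LUC7L and LUC7L2 were identical at 78.1% of 365 aligned residues, and LUC7L3 was identical to LUC7L at 42.5% and to LUC7L2 at 41.8%. All 3 carried more arginine beyond the midpoint than before it, for LUC7L2 29.1% against 7.65%.

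All members were expressed in N2a cells. Levels are compared between genes as cRPKM, the authors' reads per kilobase of mappable transcript scaled to library size. In siControl Veh, the highest was Srrm1 at 108.09 cRPKM and the lowest Pnisr at 14.79. The order in between was Rbm39 (97.26), Arglu1 (92.56), Srrm2 (77.88), Luc7l2 (74.39), Rbm25 (62.27), Son (49.85), Luc7l3 (32.17) and Luc7l (21.19). The siControl Dex library gave the same order, with Rbm39 (99.92) and Arglu1 (99.89) almost equal. These were the only neighbours in the order whose ranges over the 2 siControl libraries overlapped. Pnisr stood above 75.2% of the genes with a cRPKM, and Srrm1 above 96.5%. Both shares also count genes with few or no reads, since of 22667 genes listed only 12497 had enough reads to be tested. They therefore overstate the rank among expressed genes, most of all for Pnisr.

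**Figure D1:**
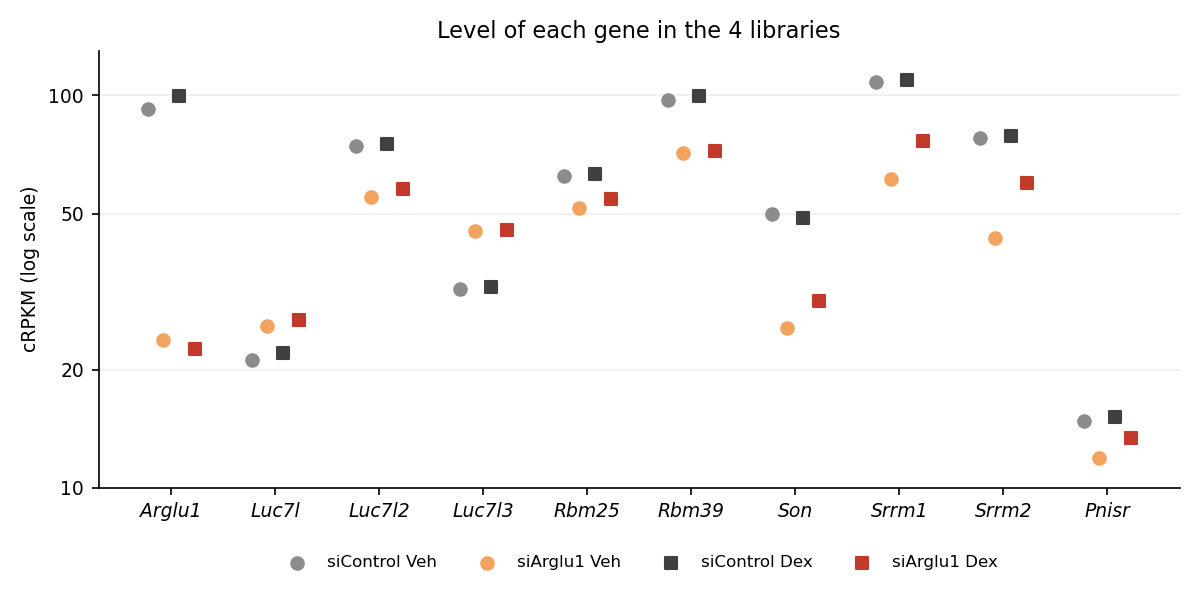
Level of the 10 genes as cRPKM on a log axis, 1 point per library. Both siArglu1 points lie below both siControl points for 8 genes, and above them for Luc7l and Luc7l3.

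Knockdown was read in 2 pairs of libraries that have no library in common, siArglu1 Veh against siControl Veh and siArglu1 Dex against siControl Dex. Arglu1 (ENSMUSG00000040459), which checks the labels, had 92.56 cRPKM in the siControl and 23.83 in the siArglu1 library with vehicle, and 99.89 and 22.62 with Dex. After scaling for library composition by TMM, the vehicle pair left 26.3% of the siControl level (exact 95% interval 25.2% to 27.5%), and the Dex pair 22.5% (21.7% to 23.4%). The intervals come from the reads of each pair and cover counting error alone, since no group has a replicate. The paper reports a deeper loss of Arglu1 mRNA by qPCR than the reads gave here, and the difference between the measures was not examined. Bulk RNA cannot tell fewer expressing cells from less RNA per cell.

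Besides Arglu1 itself, 7 of the other 9 members had lower levels in both pairs and 2 had higher levels. For all 10 genes the siArglu1 libraries did not overlap the siControl libraries, with 8 lower and 2 higher, while 40.4% of all genes tested were lower without overlap and 41.4% higher, so that lack of overlap by itself sets no gene apart. Few of these shifts were large. A gene counted as changed at a log2 ratio of 0.81 or more in either direction, a limit on size that involves no test. By it, 2 of 10 members were lower in vehicle: Arglu1, the siRNA target, and Son, which was 1 of the other 9. Of 12497 genes tested, 8.77% were lower in vehicle and 7% were higher. The number of members depends on the scale: 4 members were lower with cRPKM as deposited, Srrm1 (-0.82) and Srrm2 (-0.84) being the other 2. On that scale 2013 of 12480 genes passed in either direction, against 1971 of 12497 with TMM. With the trend on transcript length removed, 1 member was lower, Arglu1, beside 895 of 12484 genes. In Dex only Arglu1 passed, against 5.93% of genes lower and 6.19% higher. No member passed upwards in either pair. The median log2 ratio of the 9 members without Arglu1 was -0.40 in vehicle and -0.39 in Dex, while the median of all genes tested was 0.00 in both. With the length trend removed it was -0.35 in vehicle and -0.18 in Dex. A quasi-likelihood fit in edgeR over the 4 libraries, in which siRNA and Dex entered as additive terms and 1 residual degree of freedom was left, called 2 members higher and 8 lower at an adjusted p of 0.05, beside 61.6% of all genes in either direction.

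Luc7l3 and Luc7l were the 2 members with more RNA in siArglu1 cells. Luc7l3 (ENSMUSG00000020863) had 32.17 cRPKM (siControl Veh) and 45.08 (siArglu1 Veh) without Dex, and 32.55 (siControl Dex) and 45.28 (siArglu1 Dex) with it, so that both knockdown libraries stood well above both controls. Its scaled level was 143% of the siControl level in the vehicle pair (139% to 148%), and 138% in the Dex pair (134% to 142%). Luc7l (ENSMUSG00000024188) had 21.19, 25.83, 22.05 and 26.77 cRPKM in the same order of libraries, which is 125% of the siControl level in the vehicle pair (121% to 129%), and 121% in the Dex pair (117% to 124%). Luc7l2 (ENSMUSG00000029823), the closest relative of Luc7l in sequence, went the other way. It had 74.39 cRPKM in the siControl and 55.23 in the siArglu1 library with vehicle, and 75.19 and 57.73 with Dex, or 76.0% of the siControl level in the vehicle pair (74.0% to 78.0%), and 76.4% in the Dex pair (74.6% to 78.2%). None of the 3 passed the size rule in either pair. The ratio of Luc7l3 lay above those of 84.4% of all genes tested in vehicle and 84.1% in Dex. For Luc7l the shares were 73.2% and 72.8%, and for Luc7l2 23.6% and 19.3%.

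Of the RNA binding motif genes, Rbm39 (ENSMUSG00000027620) encodes a U2AF-like splicing factor and coactivator. It had 97.26 cRPKM (siControl Veh) and 71.38 (siArglu1 Veh) without Dex, and 99.92 (siControl Dex) and 72.08 (siArglu1 Dex) with it. Its log2 ratio was -0.41 (-0.45 to -0.38) in vehicle and -0.48 (-0.51 to -0.45) in Dex. Rbm25 (ENSMUSG00000010608), a U1-associated regulator of 5′ splice site choice, moved less, from 62.27 to 51.53 cRPKM in vehicle and from 63.11 to 54.34 in Dex. Its log2 ratios were -0.24 and -0.22. Pnisr, a serine and arginine rich protein that interacts with the splicing factor pinin, went from 14.79 to 11.87 cRPKM in vehicle and from 15.17 to 13.41 in Dex, with log2 ratios of -0.28 and -0.19.

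The 3 large speckle genes had the lowest log2 ratios after Arglu1 in vehicle. Son (ENSMUSG00000022961), a DNA and RNA binding protein needed to keep speckles in shape, had 49.85 cRPKM in the siControl and 25.46 in the siArglu1 library with vehicle, and 48.82 and 29.98 with Dex. Its level was 52.3% of the siControl level in the vehicle pair (51.2% to 53.4%), and 61.1% in the Dex pair (60.0% to 62.2%). Srrm2 (ENSMUSG00000039218) had 77.88, 43.40, 78.82 and 59.93 cRPKM in that order, or 57.0% of siControl in vehicle and 75.6% in Dex. Its log2 ratio in vehicle, -0.81 when rounded, stayed just short of the limit. Srrm1 (ENSMUSG00000028809), a coactivator found in complexes on spliced mRNA, had 108.09, 61.12, 109.42 and 76.65 cRPKM, or 57.9% of siControl in vehicle and 69.7% in Dex. For each of these 3 genes the loss was smaller in the Dex pair, where the log2 ratio was less negative by 0.23 (Son), 0.27 (Srrm1) and 0.41 (Srrm2). With the trend on transcript length removed, Son was almost equal in the 2 pairs (-0.51 in vehicle and -0.50 in Dex), and Srrm2 differed less (-0.35 and -0.18). Srrm1 still differed (-0.75 and -0.51). The difference between the pairs was not tested.

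**Figure D2:**
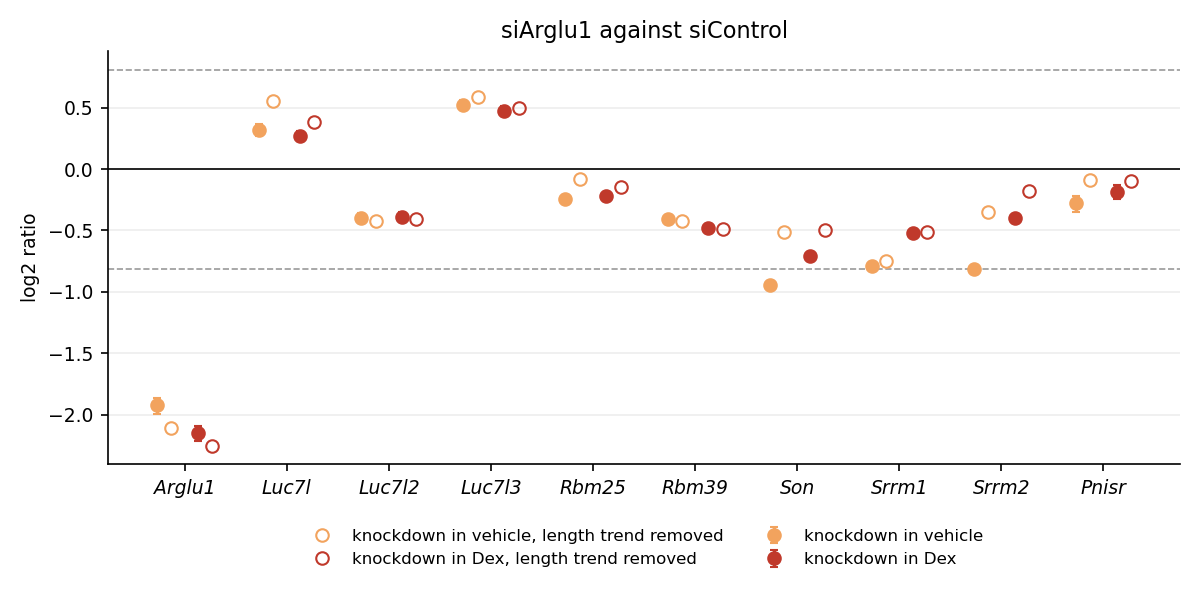
Log2 ratio of siArglu1 over siControl for each gene in vehicle and in Dex; filled points are TMM-scaled with exact 95% counting intervals, open points have the trend on transcript length removed, and dashed lines mark 0.81 in both directions. Arglu1 lies near -2 in both pairs, Luc7l and Luc7l3 lie above 0, and the other 7 genes lie below 0 with either kind of point.

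Transcript length moved with these ratios. Over all genes tested, the median log2 ratio in vehicle was 0.30 in the quintile of genes with the shortest mappable transcripts and -0.34 in that with the longest, and in Dex it was 0.14 and -0.16. Son and Srrm2 are both in the longest quintile, as is Luc7l, whereas Srrm1 is in the middle quintile. With the length trend removed by a lowess curve, Son came to -0.51 in vehicle and -0.50 in Dex, and Srrm2 to -0.35 and -0.18. Rbm25 came to -0.08 and -0.15, and Pnisr to -0.09 and -0.10. Srrm1 hardly moved, at -0.75 and -0.51, and Luc7l came to 0.55 and 0.38. Every member kept its direction in both pairs. After the removal, Arglu1 was the only member beyond 0.81 in vehicle, so the call of Son rests on the uncorrected scale. The part of transcript length in these values was not tested further.

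As a wider frame, 38 other splicing genes of RS-rich proteins were listed, of which 36 were found and tested. Their median log2 ratio was -0.25 in vehicle and -0.23 in Dex. In vehicle 29 of 36 were below 0 and in Dex 31 of 36, while among all genes tested 6211 and 6209 of 12497 were. None passed 0.81 in either pair. Ranked by whichever of the 2 ratios was nearer to 0, the lowest were Rbmx (-0.66 in vehicle and -0.67 in Dex), an RNA binding protein of the hnRNP family, the kinase gene Cdk13 (-0.78 and -0.64) and Rnps1 (-0.58 and -0.74), which is part of the exon junction complex. In vehicle alone, 6 others lay below Rnps1, from Scaf11 (-0.72) and Scaf4 (-0.71) to Nktr, Cdk12, Prpf4b and Ddx46, named after their values had been seen. Above 0 in both pairs, Zranb2, a zinc finger splicing regulator, came first at 0.31 and 0.21, followed by Sugp1 (0.03 and 0.01) and Cactin (0.01 and 0.18), whose smaller values are close to no change. No gene of this list stood as high as Luc7l3 in both pairs.

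The profile over the 4 libraries was also compared with other genes, as a description over 4 points. Centred on its own mean, the median log2 CPM of the 9 members without Arglu1 was 0.18 (siControl Veh) and -0.21 (siArglu1 Veh) without Dex, and 0.21 (siControl Dex) and -0.09 (siArglu1 Dex) with it. Among 6502 other genes whose mean cRPKM was 10 or more, the nearest by Euclidean distance were Fam117b (0.0456), Smc3 (0.0464), Usp19 (0.0470), Foxp1 (0.0470) and Ap3d1 (0.0475). Of the members, Luc7l2 lay nearest to their own median (0.0867), and Arglu1 (1.70) and Luc7l3 (0.851) lay farthest.

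The members hardly differed between Dex and vehicle in siControl cells. The 9 members other than Arglu1 had log2 ratios of Dex over vehicle between -0.02 (Son) and 0.07 (Luc7l). Arglu1 was at 0.12 (0.08 to 0.16), from 92.56 to 99.89 cRPKM. None of the 10 passed the threshold of 1 on the log2 scale used for Dex, which 0.464% of genes passed in either direction. In siArglu1 cells none passed either, against 0.392% of genes. Here the large speckle genes stood higher with Dex: Srrm2 by 0.43 (0.41 to 0.46), Srrm1 by 0.29 (0.26 to 0.33) and Son by 0.20 (0.17 to 0.23). These are the same libraries as in the knockdown comparison, so they add no separate evidence to the smaller losses described there. The log2 ratio of Dex in siArglu1 cells rose with length across genes, from a median of -0.15 in the shortest quintile to 0.14 in the longest. With that trend removed, Son was at 0.02 and Srrm2 at 0.23, and Srrm1 at 0.28 was almost as before. Arglu1 itself was lower with Dex in siArglu1 cells, at -0.11 (-0.18 to -0.03), and at -0.02 with the trend removed.

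**Figure D3:**
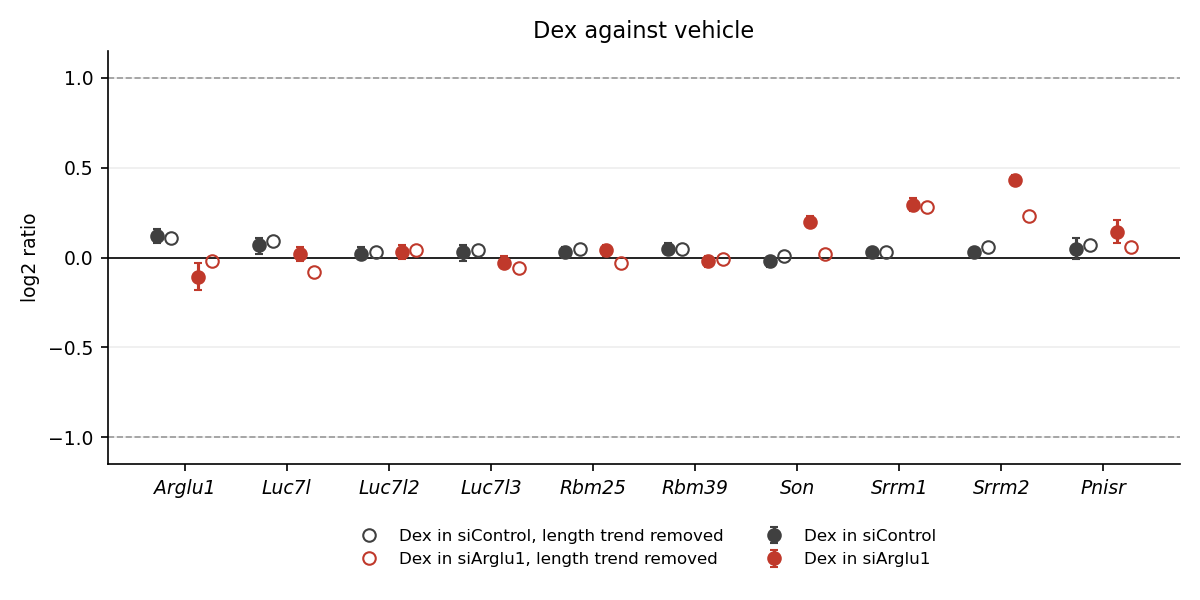
Log2 ratio of Dex over vehicle for each gene in siControl and in siArglu1 cells, with filled points, open points and intervals as in the plot of knockdown ratios and dashed lines at 1 in both directions. In siControl cells the points lie between -0.02 and 0.12, and in siArglu1 cells Srrm2 (0.43), Srrm1 (0.29) and Son (0.20) lie highest before removal of the length trend.

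Splicing of the members was examined next. PSI is the percent of transcripts that use an exon or splice site, and a coverage score in words stands beside each value. In the Alt3 and Alt5 tables, VLOW covers 10 to 19 junction reads, LOW 20 to 39, OK 40 to 99 and SOK at least 100, and no read count was taken for cassette exons. Of 123 member events, 103 had a PSI in all 4 libraries with LOW coverage or better in at least 3. A change of 15 PSI was reached by 1 of 103 in the vehicle knockdown pair, where 1.96% of 57183 events reached it, and by 0 in the Dex knockdown pair, where 1.52% did. For Dex, 0 reached it in siControl cells (0.719% of all events) and 2 in siArglu1 cells (0.948%). Both of the events concerned had low coverage scores or few reads. A 47 nt exon of Luc7l2 was used at 100.00 PSI in the siControl and 76.92 in the siArglu1 library with vehicle, and 96.08 and 95.24 with Dex, and the value that stands apart was scored VLOW. A 3 nt Alt3 choice of Srrm1 was at 72.61, 79.91, 59.40 and 61.73 PSI in the same order, on 42, 19, 43 and 38 reads. Among the 96 member events with OK or better coverage in all 4 libraries, no change reached 15 PSI in any pair, and the largest was 8.52.

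At its 3 well covered events, Arglu1 was spliced almost the same way in every library. Retained introns are not among the event types counted here, so splicing of that kind was not examined. Its 84 nt exon was included at 99.18 to 99.65 PSI and its 58 nt exon at 0.63 to 1.55 PSI, with SOK coverage throughout. The 10 nt Alt3 choice stayed between 99.92 and 100 PSI on 1295 reads (siControl Veh) and 216 (siArglu1 Veh) without Dex, and 1405 (siControl Dex) and 250 (siArglu1 Dex) with it. No well covered Arglu1 event had a PSI between 5 and 95. These 3 events moved by at most 0.92 PSI in any pair, while the reads at the Alt3 junctions were fewer in the siArglu1 libraries, as for the gene. An Alt5 choice near the 58 nt exon rested on 33 and 38 reads in siControl and on 2 and 9 in siArglu1, too few to compare.

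Smaller shifts that repeated in both knockdown pairs were found in other members. With sizes chosen after the values had been seen, 3 of the 96 well covered events moved by at least 5 PSI in the same direction in both pairs, beside 3.65% of all 46423 such events, and 14 moved by at least 2 PSI, beside 10.2%. The share at 5 PSI is near that of all events. The 3 at 5 PSI were a 71 nt exon of Luc7l, an Alt5 choice of Luc7l3 and a 64 nt exon of Rbm25, and Rbm25 alone held 5 of the 14. No well covered event of Pnisr moved in the same direction in both pairs.

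The events were then read against annotated transcripts. The files use mouse build mm9 and the annotation GRCm38, so exons were matched by gene identifier, exon length and both flanking intron lengths, not by position. Of 59 well covered cassette exons, 38 were matched. Of these, 8 exons in 5 genes occur only in transcripts annotated for NMD or as retained introns and bring in a stop codon more than 50 bases before the last exon junction when placed in the longest coding transcript that skips them. Such an exon is called a stop exon here. The following runs, from GENCODE M21 transcripts, show the 4 of them with the largest repeated shifts from the first base of the exon to the first in-frame stop, which is in capitals, and 2 coding exons that moved. For Luc7l and Son the stop lies beyond the exon, and the run goes on through the next exons as spliced.
Luc7l 71 nt exon, chr17:26253974-26254044, plus strand: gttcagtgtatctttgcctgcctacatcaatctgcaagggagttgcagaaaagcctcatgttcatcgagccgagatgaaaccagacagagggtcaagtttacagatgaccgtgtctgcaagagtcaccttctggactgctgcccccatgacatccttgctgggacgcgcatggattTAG
Rbm25 105 nt exon, chr12:83651646-83651750, plus strand: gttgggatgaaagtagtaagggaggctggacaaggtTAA
Rbm39 73 nt exon, chr2:156178880-156178952, minus strand: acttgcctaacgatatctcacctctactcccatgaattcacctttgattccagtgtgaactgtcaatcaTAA
Son 80 nt exon, chr16:91674695-91674774, plus strand: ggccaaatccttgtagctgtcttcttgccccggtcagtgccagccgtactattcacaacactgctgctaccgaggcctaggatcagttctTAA
Luc7l3 106 nt exon, chr11:94292927-94293032, minus strand: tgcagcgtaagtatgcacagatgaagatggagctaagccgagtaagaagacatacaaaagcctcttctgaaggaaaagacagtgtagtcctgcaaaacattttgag
Rbm25 54 nt exon, chr12:83660308-83660361, plus strand: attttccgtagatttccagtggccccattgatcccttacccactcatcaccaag

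The stop exon of Luc7l had the largest repeated shift of all member exons. With it, the reading frame of 371 codons ends after 79. Its PSI was 29.46 in the siControl and 20.98 in the siArglu1 library with vehicle, and 29.86 and 21.64 with Dex, a change of -8.48 in vehicle and -8.22 in Dex with SOK coverage in all libraries. The 2 siControl values differed by 0.40 PSI. Inclusion of this exon was lower in the libraries in which Luc7l RNA was higher.

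In Rbm39 and Son, stop exons were included more often in siArglu1 cells and the genes were lower. The 73 nt exon of Rbm39, which ends the frame after 40 of 530 codons, was at 15.04 PSI (siControl Veh) and 18.24 (siArglu1 Veh) without Dex, and 12.32 (siControl Dex) and 17.79 (siArglu1 Dex) with it. The other 3 stop exons of Rbm39 stayed under 4 PSI and moved by at most 1.01 in either pair. The 80 nt exon of Son, late in the frame (stop after 2343 of 2477 codons), was at 13.67 PSI in the siControl and 16.05 in the siArglu1 library with vehicle, and 13.19 and 17.61 with Dex. For both exons the siArglu1 values lay above both siControl values. The siControl libraries differed by 2.72 PSI at the Rbm39 exon, nearly as much as its knockdown shift of 3.20 in vehicle.

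The direction was not the same in every gene with a stop exon. The 105 nt exon of Rbm25 was at 5.21 PSI against 2.78 in vehicle and at 4.56 against 2.72 in Dex, siControl first, and Rbm25 RNA was lower as well. The 261 nt stop exon of Srrm2 went from 5.64 to 4.59 PSI in vehicle and from 5.49 to 4.79 in Dex, again with lower Srrm2 RNA. Its changes of -1.05 and -0.7 PSI were small, so its direction is uncertain. Of the 5 exons with a PSI of at least 5 in any library, those of Luc7l, Rbm39 and Son thus moved opposite to the level of their gene in both pairs. Those of Rbm25 and, by little, Srrm2 moved in the same direction as it. The exons of Rbm25 and Srrm2 reached 5 PSI only in siControl libraries, so the limit itself favoured lower siArglu1 values for them. The tally of directions is therefore a description and carries no weight as a result. Whether the exons set the RNA levels was not tested. A PSI counts the transcripts present, not those made.

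Rbm25 had the most events of any member, 22. The 64 nt exon, which lies in the 5′ UTR of the transcript it was placed in, was at 17.40 PSI (siControl Veh) and 10.51 (siArglu1 Veh) without Dex, and 14.17 (siControl Dex) and 8.62 (siArglu1 Dex) with it. A 118 nt exon, also placed in a 5′ UTR, was at 18.59, 14.79, 16.21 and 14.15 PSI, so that the siControl libraries differed by 2.38, more than the shift of 2.06 in Dex. An 80 nt and a 62 nt exon without a match in the annotation went from 5.93 to 2.05 and from 5.38 to 2.46 PSI in vehicle, and from 6.83 to 2.55 and from 5.60 to 1.97 in Dex. All of these minor exons were thus used less in siArglu1 cells. The coding 54 nt exon, used in most transcripts, lay higher instead, going from 91.50 to 94.32 PSI in vehicle and from 92.03 to 94.48 in Dex.

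Luc7l3 differed at the 3′ end of its coding sequence. The 106 nt exon shown above was at 3.13 PSI in the siControl and 8.64 in the siArglu1 library with vehicle, and 3.04 and 7.77 with Dex, and it is coding in its annotated transcript, which encodes 477 residues against 491 in the longest form. An Alt5 choice just upstream, with the upstream one of its 2 sites at 3.04 PSI (1.71 to 4.97) in siControl Veh, 8.61 (6.89 to 10.6) in siArglu1 Veh, 3.39 (2.05 to 5.25) in siControl Dex and 8.58 (7.02 to 10.4) in siArglu1 Dex, moved alongside. Its exact binomial intervals from 493, 941, 560 and 1130 junction reads did not overlap between siControl and siArglu1 in either pair. Both events read junctions to the same last exon, so they are not independent of each other. Unlike the stop exon of Luc7l, this exon was used more where its gene was higher.

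Further events with repeated shifts were an 18 nt Alt3 choice of Rbm39, at 37.60 PSI (siControl Veh) and 29.08 (siArglu1 Veh) without Dex, and 32.57 (siControl Dex) and 28.63 (siArglu1 Dex) with it, and a 194 nt exon of Son without a match in the annotation, at 12.74, 16.54, 9.02 and 15.66 PSI. For these 2 events the siControl libraries themselves differed by 5.03 and 3.72 PSI. At the Rbm39 choice this is larger in size than the change of -3.94 in the Dex knockdown pair. At the Son exon it is nearly as large as the change of 3.80 in the vehicle knockdown pair. A 268 nt exon of Srrm2 likewise moved more between the siControl libraries (76.30 to 83.17 PSI) than in either knockdown pair (to 73.91 in vehicle and 77.77 in Dex). A 90 nt Alt3 choice of Srrm1 went from 97.75 to 100 PSI in vehicle and from 96.56 to 99.15 in Dex.

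**Figure D4:**
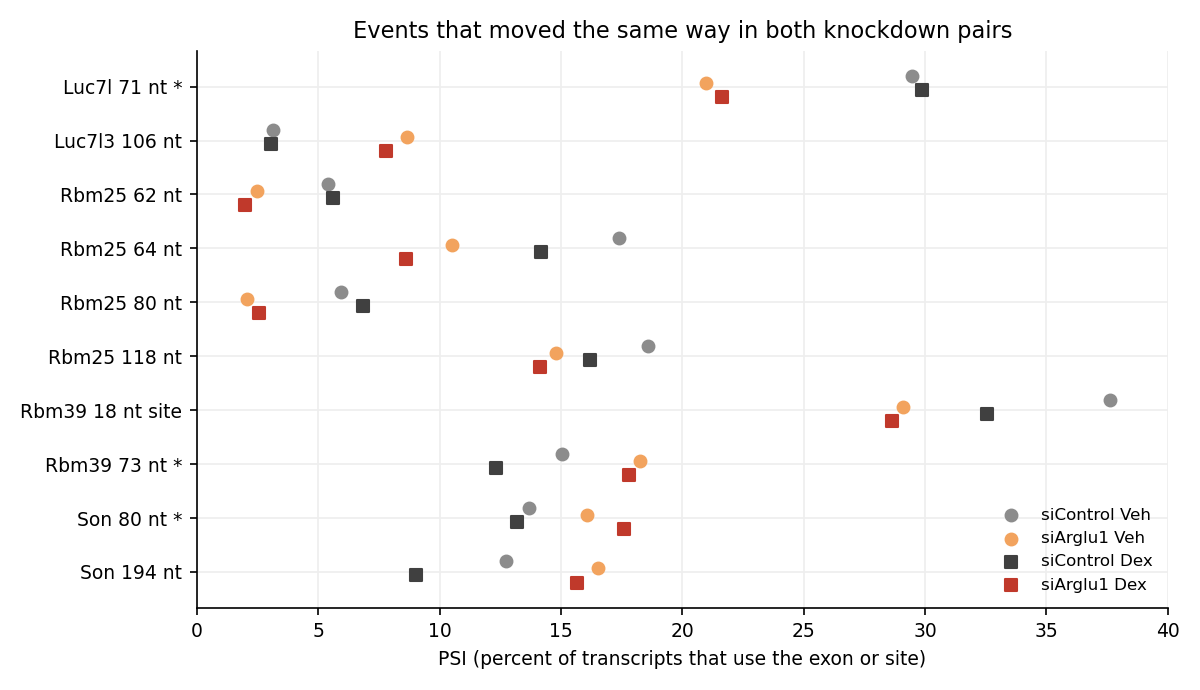
PSI in each of the 4 libraries for the 10 well covered minor events (siControl Veh below 50 PSI) that moved by at least 2 PSI in the same direction in both knockdown pairs; an asterisk marks stop exons and nt the length of the exon or the offset of the site. The siArglu1 points lie to the left of the siControl points for the Luc7l exon, the 4 Rbm25 exons and the Rbm39 18 nt site. They lie to the right for the Luc7l3, Rbm39 73 nt and both Son exons.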

How the data were processed

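Per the labels and the methods of the study, each TruSeq library was made from the pooled polyA RNA of 3 cultures and sequenced on a HiSeq2500. The submitters' processing notes name Bowtie and mm9, and the paper names vast-tools. The sources used here give no versions. The authors deposited raw read counts per gene, and RPKM corrected for mappability (cRPKM). They also deposited PSI as a percent per splicing event with a coverage score in words. A blank read count was taken as 0. The 2 unnamed deposited columns hold the authors' own cRPKM ratio of Dex over Veh and were not used.

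Reads were scaled by TMM (edgeR 4.0.16, R 4.3.3), and log2 CPM used a prior count of 1. A gene needed 75 reads over the 4 libraries. A ratio within 1 pair of libraries has no test, since each group is a single library, and is given with an exact 95% interval (SciPy 1.17.1). The trend on mappable length, taken from reads and cRPKM, was removed by lowess (span 0.3, 3 iterations, statsmodels 0.14.6). The only test, run as an alternative, was the quasi-likelihood test of edgeR with siRNA and Dex as additive terms over both pairs (1 residual degree of freedom, Benjamini-Hochberg adjusted p of 0.05). DESeq2 1.42.0 size factors were another alternative. Sites of 1 Alt3 or Alt5 event counted once, without the reference site, and coverage was read from the first score. PSI intervals are Clopper-Pearson, given where PSI times junction reads was a whole number within rounding. Proteins were translated from GENCODE M21 transcripts and aligned with Biopython 1.88 (BLOSUM62, end gaps free).

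The members and lists were chosen with earlier results of these data known. All 10 members are named, as are, of the 38 other genes, the 3 highest and 3 lowest by whichever of their log2 ratios in the knockdown pairs was nearer to 0. Of the events, those past 15 PSI and the largest repeated shift per member are named, and those moving by 2 PSI in both pairs were added after their values were seen. The scripts were tested on simulated data.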

Additional observations from a re-analysis of the deposited data

Results flagged for a closer look

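Arglu1 RNA moved in opposite directions with Dex in siControl cells (log2 ratio of 0.12) and in siArglu1 cells (-0.11), with counting intervals that leave out 0 on either side. The difference was not tested, since each group is 1 library. Once corrected for the length trend, the ratios were 0.11 and -0.02.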

How the results depend on the processing

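No paired analysis was possible because each group is 1 library, so that no replicate number could serve as a block; the additive model below compares siRNA within each Dex state instead. All 20 knockdown log2 ratios of the members kept their direction under the 7 scalings tried, as did 15 of 20 Dex ratios. In vehicle, 2 members were lower by the size rule. The number was 4 with total reads and 4 with cRPKM as deposited, 3 with DESeq2 size factors, and 1 with the length trend removed or a threshold of 1. Of all genes, 1971 of 12497 passed in either direction by the size rule. With total reads 1992 passed, with cRPKM 2013 of 12480, and with DESeq2 size factors 1977. The number was 1654 of 12484 with the length trend removed and 1231 at a threshold of 1. The additive edgeR model, which takes the effects of knockdown and Dex to add up on the log scale, called 2 members higher and 8 lower by knockdown, beside 61.6% of all genes tested. It called 1 of the other RS-rich genes higher and 23 lower. Of the other RS-rich genes, 1 was lower in vehicle with total reads or cRPKM, and 1 in Dex with the length trend removed. Without a coverage minimum, 4 and 7 of 119 member events passed 15 PSI by knockdown in vehicle and Dex, beside 5363 and 4779 of all 78286. By Dex, 5 and 10 member events passed in siControl and siArglu1 cells, beside 4151 and 4482 of all events. With OK coverage in all 4 libraries or a change of 25 PSI the numbers were 0. At 10 PSI, 1 of 103 member events passed by Dex in siControl cells, beside 1233 of all 57183. Events moving the same way in both knockdown pairs were 3 at 5 PSI and 14 at 2 PSI. Depth is not the limit for the members' RNA levels, at 2637 reads or more per library. The single library per group is.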
